A study of Mus musculus with 4 samples.

Results

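Expression of 10 genes that encode elastic fibers and the microfibrils around them was examined in ID8G cells and in GO2 cells. The genes are Fbn1, Fbn2, Eln, Fbln2, Fbln5, Efemp1, Efemp2, Mfap2, Mfap4 and Emilin1, and they were found through the RefSeq accession of each probe. All 10 were on the array, with 16 probes in all, among 22911 genes with a symbol. ID8 is a mouse ovarian cancer line, and ID8G cells are ID8 cells that carry GFP from a retroviral vector. GO2 cells descend from ID8G cells through 2 passages as omental tumors in syngeneic C57BL/6 J mice, each followed by a sort for cells positive for GFP and negative for CD45. Both lines therefore carry the vector. The study gives a medium with insulin, transferrin and selenite for ID8 cells and names no other medium for GO2 cells. No further treatment of either line is named for the arrays. GO2 is a single selected line, so that selection in the omentum and drift in culture cannot be told apart. Each line was measured on 2 Agilent arrays, with 1 color per array. The labels do not say whether the arrays of a line came from separate cultures, so the p values measure only the spread between these arrays, which may be technical.

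Elastic fibers give tissues their recoil. Fibrillins polymerize into microfibrils, which form a scaffold on which tropoelastin, the product of Eln, is laid down and crosslinked by lysyl oxidases. Fibulins bind tropoelastin and fibrillin and guide this assembly, and microfibrils also hold latent TGF-beta in the matrix through its binding proteins. Fibroblasts, smooth muscle cells and mesothelial cells are the usual sources of these proteins.

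Levels are given on the log2 scale, relative to the 75th percentile of each array, so that levels of the same probe can be compared between arrays but levels of different probes cannot be compared with each other. The scanner software marks signal that is well above background, and the 28368 probes with this mark on the 2 arrays of a line, or of both lines, were tested with limma. To be called, a probe had to differ by 2-fold or more with an adjusted p (Benjamini-Hochberg) under 0.05. Where neither array of a line had this mark, that line was set to the lowest level that carried it, and the fold is a lower bound. An adjusted p printed beside such a bound belongs to the difference as measured, not to the bound. On single arrays, 27502 to 28841 of 56605 probes were well above background, no spot was saturated, and replicates correlated at 0.997 in each line across tested probes. The 7 spike-in transcripts used for scaling were 0.15 to 0.27 higher in GO2 cells on this scale.

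Of the 10 genes, Fbn1, Fbln5, Emilin1, Efemp1 and Fbln2 were called higher in GO2 cells and none was called lower. Across the array, 6.44% of the 13215 genes tested had a probe called higher and 4.33% had a probe called lower. By probe, 10 of the 16 were tested and 7 were called higher, where 4.5% of all tested probes were higher and 3.34% were lower. Scaled to the spike-in transcripts, the arrays gave 1107 probes higher and 1428 lower in place of 1277 and 947, and the same 5 of the 10 genes were called. Efemp2 and Mfap4 were tested and not called, and Eln, Fbn2 and Mfap2 did not pass the filter on signal. Fbn1, Fbln5 and Emilin1 passed the filter through GO2 cells alone, which selects for a difference, so that the count of 5 among the 7 genes tested is not a measure of how common the change was. Of the 4 genes measured on all 4 arrays, Efemp1 and Fbln2 were called, and the median log2 difference of the 4 was 1.08, against -0.01 for the 12308 genes measured on all 4 arrays. With the test limited to probes well above background on all 4 arrays, 666 of 26020 probes were called higher and 606 lower. The plot of levels by array shows all 16 probes.

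**Figure D1:**
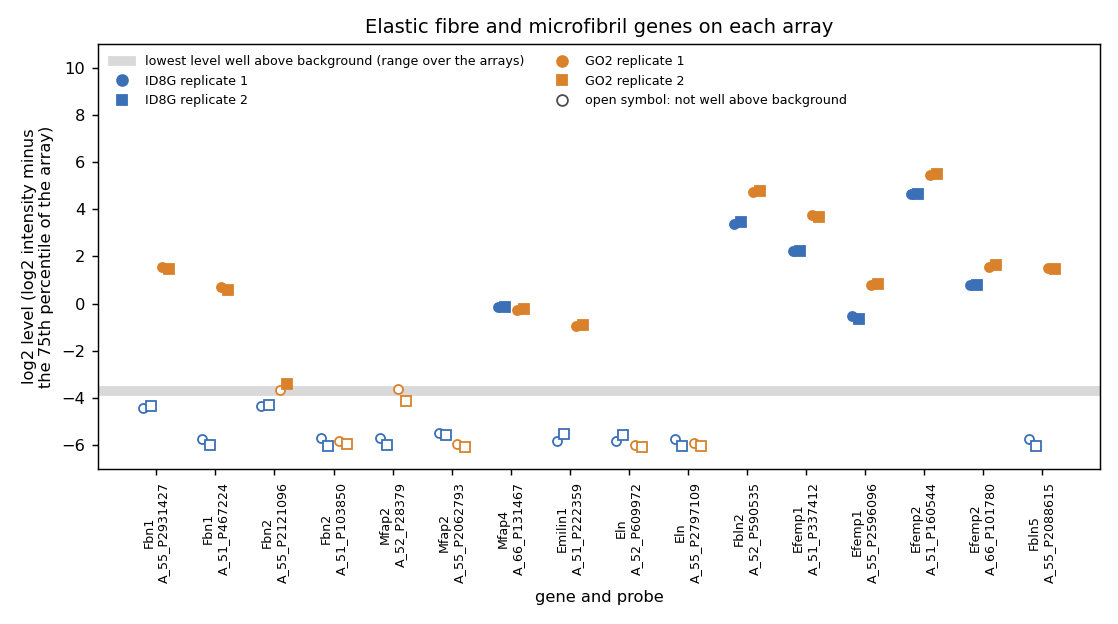
Level of each probe (log2, relative to the 75th percentile of its array, vertical axis) on the 2 ID8G arrays (blue) and the 2 GO2 arrays (orange), with circles for replicate 1, squares for replicate 2 and open symbols for signal that was not well above background. The gray band spans the lowest level well above background on the 4 arrays, from -3.85 to -3.53. Fbn1, Emilin1 and Fbln5 lay below it on both ID8G arrays and between -0.94 and 1.56 on the GO2 arrays, and both Eln probes lay below it on every array.

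The fibrillins differed from each other in what could be measured. Fbn1 encodes fibrillin-1, the main subunit of microfibrils in adult tissue. Its probe A_55_P2931427 had levels of -4.42 and -4.34 on the ID8G arrays and of 1.56 and 1.49 on the GO2 arrays. No ID8G array was well above background. Fbn1 was at least 36.7-fold higher in GO2 cells by this probe (measured means -4.38 ± 0.06 in ID8G cells and 1.52 ± 0.05 in GO2 cells, SD, n = 2 arrays, limma adjusted p = 0.000182). The second Fbn1 probe, A_51_P467224, read -5.72 and -6.00 in ID8G cells and 0.72 and 0.58 in GO2 cells. By it, Fbn1 was at least 20.1-fold higher (limma adjusted p = 0.000189). Both probes thus placed fibrillin-1 transcripts in the range of clear signal in GO2 cells and in the range of background in ID8G cells.

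Fbn2 encodes fibrillin-2, the fibrillin best known from embryonic microfibrils. Its probe A_55_P2121096 had levels of -4.35 and -4.28 in ID8G cells and of -3.68 and -3.40 in GO2 cells. A single one of the 4 arrays, GO2 replicate 2, was well above background, so the probe was not tested and no fold is given. The other Fbn2 probe, A_51_P103850, lay between -6.01 and -5.71 on all arrays, and the lines overlapped. Whether Fbn2 differed between the lines could not be tested at this signal.

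The proteins that attach to microfibrils were divided as well. Emilin1 encodes a glycoprotein at the border between elastin and microfibrils that also restrains TGF-beta maturation. Its single probe read -5.80 and -5.52 in ID8G cells and -0.94 and -0.91 in GO2 cells. That is at least 6.73-fold higher in GO2 cells (measured means -5.66 ± 0.20 and -0.93 ± 0.02, SD, n = 2 arrays, limma adjusted p = 0.00023). The measured difference, with the ID8G signal taken as it stood, was 4.74 on the log2 scale.

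Mfap4 encodes a fibrinogen-domain protein that binds elastin and fibrillin-1. It was measured on all 4 arrays, at -0.13 and -0.14 in ID8G cells and at -0.26 and -0.22 in GO2 cells. The difference was -0.11 on the log2 scale, with a 95% interval from -0.25 to 0.03, and it was not called (limma adjusted p = 0.18). A 2-fold change of Mfap4 in either direction lies outside this interval. Mfap2 encodes MAGP1, a small glycoprotein bound to fibrillin along the microfibril. Its probe A_52_P28379 had levels of -5.71 and -6.00 in ID8G cells and of -3.61 and -4.12 in GO2 cells. No array was well above background for it, and no fold is given. With no filter on dim signal this probe was called, with a difference of 1.99 on the log2 scale (limma adjusted p = 0.037). The other Mfap2 probe, A_55_P2062793, ran the opposite way, with -5.46 and -5.56 in ID8G cells and -5.95 and -6.06 in GO2 cells, also below background throughout.

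Tropoelastin transcripts were not well above background in either line. The Eln probe A_52_P609972 read -5.81 and -5.56 in ID8G cells and -6.00 and -6.09 in GO2 cells. The Eln probe A_55_P2797109 read -5.74 and -6.04 in ID8G cells and -5.90 and -6.01 in GO2 cells. On the linear scale of the scanner these are intensities of 9.21 to 14.1, where the 75th percentile of the arrays was 627 to 675. No array was well above background for Eln, and no comparison between the lines can be made for it.

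The 4 fibulin genes were all well above background in GO2 cells. Fbln5 encodes fibulin-5, which tethers tropoelastin to microfibrils and to integrins at the cell surface. Its probe A_55_P2088615 had levels of -5.74 and -6.03 in ID8G cells and of 1.51 and 1.48 in GO2 cells. No ID8G array was well above background. Fbln5 was at least 36.0-fold higher in GO2 cells (measured means -5.88 ± 0.21 and 1.49 ± 0.02, SD, n = 2 arrays, limma adjusted p = 0.000182). A further probe without a RefSeq accession, A_51_P186703, is named Fbln5 in the study's list of genes higher in GO2 cells. It read -5.38 and -5.99 in ID8G cells and 1.22 and 1.24 in GO2 cells. Since that list was chosen on these arrays, this probe is not independent evidence of the direction. The same holds for a further probe of Fbn1 on that list, A_55_P2732863, with -5.79 and -6.09 in ID8G cells and -2.57 and -2.66 in GO2 cells.

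Efemp1, which encodes fibulin-3, and Fbln2, which encodes fibulin-2, were present in both lines, so that their folds are measured and not bounds. The Efemp1 probe A_51_P337412 had levels of 2.21 and 2.24 in ID8G cells and of 3.76 and 3.69 in GO2 cells. Efemp1 was 2.82-fold higher in GO2 cells (log2 difference 1.50, standard error 0.06, limma adjusted p = 0.00047). The second Efemp1 probe, A_55_P2596096, with -0.53 and -0.65 in ID8G cells and 0.80 and 0.82 in GO2 cells, was higher by 1.40 on the log2 scale, within the interval of the first (1.34 to 1.65). Fbln2 had levels of 3.39 and 3.45 in ID8G cells and of 4.72 and 4.76 in GO2 cells. It was 2.49-fold higher in GO2 cells (log2 difference 1.32, standard error 0.05, limma adjusted p = 0.00055).

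Efemp2 encodes fibulin-4, which is required for elastic fiber formation and recruits lysyl oxidase. The probe A_51_P160544 had levels of 4.64 and 4.64 in ID8G cells and of 5.46 and 5.51 in GO2 cells. The probe A_66_P101780 had 0.81 and 0.81 in ID8G cells and 1.56 and 1.66 in GO2 cells. The differences of 0.84 (95% interval 0.70 to 0.99) and 0.80 (0.63 to 0.96) had limma adjusted p values of 0.0014 and 0.0023. Both were below the 2-fold limit, so that Efemp2 was not called.

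**Figure D2:**
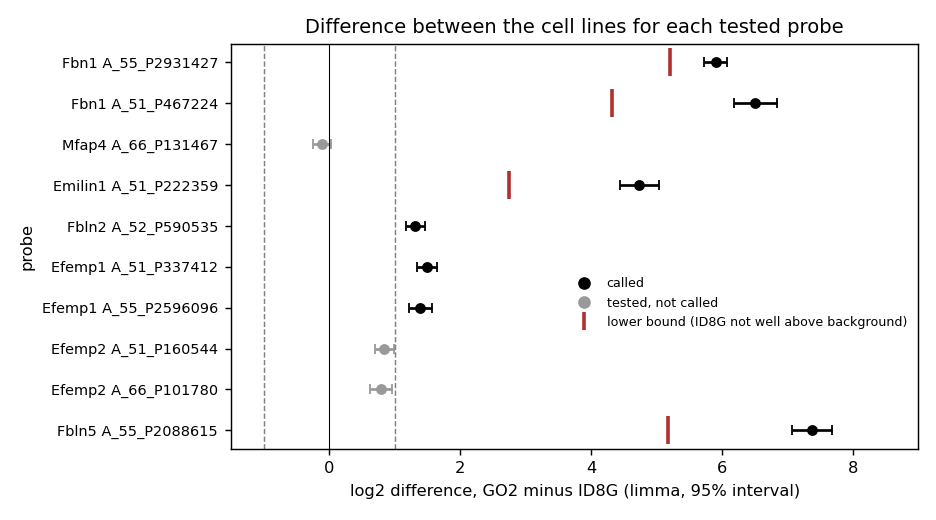
Log2 difference between GO2 and ID8G cells (horizontal axis, with 95% intervals from limma) for the 10 tested probes, in black where called and gray where not, with dashed lines at a 2-fold difference. Red marks give the lower bound for genes without clear signal in ID8G cells, which is 2.75 for Emilin1, 4.33 and 5.20 for the Fbn1 probes and 5.17 for Fbln5.

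The size of the difference for genes at background in ID8G cells depended on how background was treated. With normexp background correction, the log2 difference of Fbln5 was 4.58 in place of 7.38, that of Emilin1 was 2.39 in place of 4.74, and those of the Fbn1 probes were 4.25 and 3.56 in place of 5.90 and 6.51, and all stayed called. Efemp1 (A_51_P337412), Fbln2 and Efemp2 (A_51_P160544) moved by less under this correction, to 1.53, 1.28 and 0.83. With the methods' t-test none of the probes was called after adjustment, and the adjusted p values of the 7 probes ranged from 0.097 to 0.17. With 2 arrays against 2, an exact two-sided permutation test of 1 probe cannot give a p below 0.333.

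To show the sequence next to some of the genes, the stretch before the annotated gene is given for Fbn1, Fbln5 and Efemp1, which were called, and for Efemp2, which was not. The sequences are from RefSeq (GRCm38.p6), run 5′ to 3′ on the strand of the gene, and stop before the first annotated base of the gene. Capitals mark matches on either strand to GGGCGG, the GC box, and to TGANTCA, a loose form of the AP-1 motif with any base at N.
Fbn1 (chr2:125506486-125506688, minus strand): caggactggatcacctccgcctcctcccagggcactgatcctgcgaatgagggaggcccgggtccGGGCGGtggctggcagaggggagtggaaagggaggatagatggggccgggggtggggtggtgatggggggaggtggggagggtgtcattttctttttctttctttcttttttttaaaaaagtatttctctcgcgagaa
Fbln5 (chr12:101819120-101819369, minus strand): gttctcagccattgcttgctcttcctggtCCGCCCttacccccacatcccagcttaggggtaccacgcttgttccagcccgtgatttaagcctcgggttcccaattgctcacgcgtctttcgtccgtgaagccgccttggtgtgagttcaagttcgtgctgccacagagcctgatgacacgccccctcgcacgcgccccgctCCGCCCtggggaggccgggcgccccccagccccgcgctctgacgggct
Efemp1 (chr11:28852955-28853153, plus strand): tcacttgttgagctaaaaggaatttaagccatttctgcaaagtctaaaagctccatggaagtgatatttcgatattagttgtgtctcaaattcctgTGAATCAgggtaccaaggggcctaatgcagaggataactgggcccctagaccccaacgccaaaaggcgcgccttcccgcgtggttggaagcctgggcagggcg
Efemp2 (chr19:5473696-5473945, plus strand): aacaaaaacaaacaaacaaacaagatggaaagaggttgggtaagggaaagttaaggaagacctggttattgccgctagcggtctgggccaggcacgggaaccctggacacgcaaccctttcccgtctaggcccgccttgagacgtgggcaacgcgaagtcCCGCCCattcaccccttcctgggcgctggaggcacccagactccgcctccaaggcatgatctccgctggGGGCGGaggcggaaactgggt

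In these stretches the GC box occurred at 1 place in Fbn1, at 2 in Fbln5 and at 2 in Efemp2. The AP-1 motif in this loose form occurred at 1 place in Efemp1, as TGAATCA. Efemp1 also had a GC box 29 bases before an annotated start, past the end of the stretch shown. Emilin1, which was called and is not shown, had no GC box in its window. Over the 250 bases before every annotated start, the reference table held 11 windows for 7 of the 10 genes, some of them overlapping, and none for Fbn2, Eln and Mfap4. The GC box was in 8 of these 11 windows and in 32.7% of all 32851 windows. The AP-1 motif was in 1 of 11 (6.75% of all), CAGACA, a SMAD motif, in 3 of 11 (17.1%), CATTCC, a TEAD motif, in 1 of 11 (12.6%), and CANNTG, the E-box, in 5 of 11 (66.2%). TATAAA, the TATA box, was in 0 of 11 and in 12.4% of all. The windows of the 10 genes had a GC content of 49.6% to 78.8%, with a median of 59.2% against 52.4% for all windows. These are matches to letters, not binding sites.

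Of the other genes of elastic fiber assembly, crosslinking and turnover, 47 of 48 had a probe and 29 were tested. Of these, 6 were called higher in GO2 cells (Ltbp1, Ltbp2, Lox, Fbln7, Adamtsl4 and Mmp14) and 1 was called lower (Itgb3), where 6.44% and 4.33% of all genes tested were called. Ltbp2, Fbln7 and Mmp2 passed the filter through GO2 cells alone. Of the 26 genes measured on all 4 arrays, 4 were called higher (Ltbp1, Lox, Adamtsl4 and Mmp14) and 1 was called lower (Itgb3). With the test limited to probes well above background on all 4 arrays, 666 of 26020 probes were higher and 606 lower. The median log2 difference of the 26 genes was 0.20, against -0.01 for all genes so measured.

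Among the latent TGF-beta binding proteins, which tie latent TGF-beta to fibrillin microfibrils, 2 of 4 were called higher. Ltbp1 was higher by 1.29 on the log2 scale (0.68 ± 0.12 in ID8G cells, 1.97 ± 0.03 in GO2 cells, SD, n = 2 arrays, limma adjusted p = 0.0014). With limma treat, which tests against the 2-fold limit itself, Ltbp1 was not called (adjusted p = 0.207). Ltbp2 was not well above background in ID8G cells and was at least 2.22-fold higher in GO2 cells. Ltbp3 had a difference of -0.62 and Ltbp4 of 0.34, and neither was called.

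The lysyl oxidases crosslink elastin and collagen. Lox was the single one of 5 to be called, at 0.55 ± 0.06 in ID8G cells and 3.73 ± 0.03 in GO2 cells (SD, n = 2 arrays), a difference of 3.18 on the log2 scale (limma adjusted p = 0.000189). Its second probe was higher by 2.97. Loxl2 had a difference of 0.48 and Loxl1, which acts mainly on elastin, of 0.27, both below 2-fold.

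In the wider fibulin, EMILIN and microfibril-associated group, 4 of the 9 genes on the array were tested and Fbln7, the gene of fibulin-7, was called. Its ID8G signal was not well above background, which leaves at least 1.35-fold. Emilin2, a relative of Emilin1, differed by 0.92 (95% interval 0.75 to 1.09) and Mfap3 by 0.15, and neither was called. Fbln1 and Mfap5 were not well above background on any array.

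Among 8 ADAMTS and ADAMTS-like genes whose products bind fibrillin microfibrils, Adamtsl4 was called higher, by 1.90 and 2.06 on the log2 scale for its probes. Thsd4, also known as Adamtsl6, had differences of -0.95 and -0.94, and Adamts10 of -0.80 for its brightest, below the 2-fold limit. Of the proteases that can cleave elastin, Mmp14, a membrane-anchored metalloprotease, was higher by 2.53 (limma adjusted p = 0.000242). Ctsl, the gene of cathepsin L, differed by -0.37 and Elane by -0.10, and neither was called. Mmp7, Mmp9 and Mmp12 were below background.

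Receptor genes were measured in both lines where they were measured at all. Of 12 genes of the elastin receptor complex and of integrin subunits, 8 were tested, none was called higher, and Itgb3, the integrin beta3 subunit, was called lower. Its level was 2.63 ± 0.07 in ID8G cells and 1.44 ± 0.04 in GO2 cells (SD, n = 2 arrays), a difference of -1.19 (limma adjusted p = 0.00092). The second Itgb3 probe differed by -0.78 and was not called. Itgb1 differed by -0.30 and Ctsa by 0.30.

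**Figure D3:**
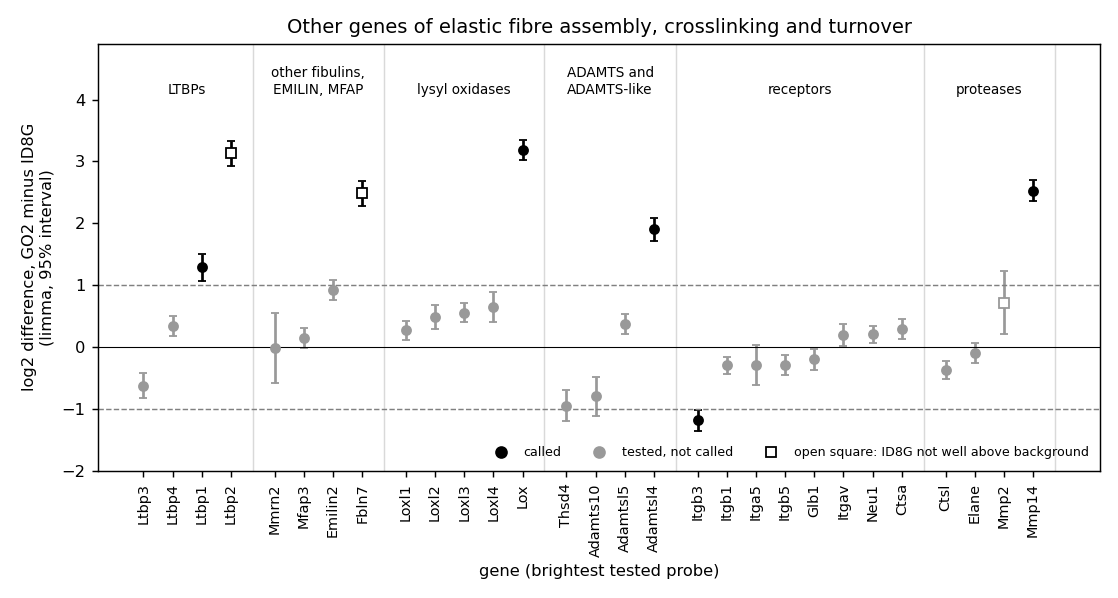
Log2 difference between GO2 and ID8G cells (vertical axis, with 95% intervals from limma) for the brightest tested probe of 29 related genes, grouped by role, in black where called and gray where not. Open squares are genes not well above background in ID8G cells, and dashed lines mark a 2-fold difference. Among the genes measured on all 4 arrays, Lox, at 3.18, was the highest and Itgb3, at -1.19, the lowest, and the open squares of Ltbp2 and Fbln7 are differences from signal at background.

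Markers of other cell types were examined in the same way, where 6.44% of all genes tested were called higher and 4.33% lower. Of 10 fibroblast markers, 6 were tested, 5 were called higher in GO2 cells (Col1a1, Col1a2, Col3a1, Pdgfra and Pdgfrb) and none was called lower. Pdgfrb passed the filter through GO2 cells alone and was at least 2.42-fold higher. The log2 of the summed level of the list was 6.10 to 6.16 in ID8G cells and 7.23 to 7.24 in GO2 cells, a sum set mainly by its brightest probes, those of Dcn and Col1a1. Dcn, the gene of decorin, differed by -0.63, and Thy1, Lum, Fap and Dpt were not well above background on any array. Of 8 smooth muscle and pericyte markers, 4 were tested and 3 were called higher (Acta2, Cnn1 and Tagln). Cnn1 passed the filter through GO2 cells alone and was at least 2.58-fold higher. The brightest Acta2 probe differed by 0.30 and was not called, and Myh11, Des and Rgs5 were not well above background on any array. The summed level of that list was 5.75 to 5.79 in ID8G cells and 6.06 to 6.09 in GO2 cells. GO2 cells had been sorted for GFP, which host cells lack. The part of such cells in the higher levels of Fbn1, Fbln5, Emilin1, Efemp1 and Fbln2 was not tested, and in bulk RNA a change in the share of cells and a change of RNA per cell cannot be told apart.

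For other cells that an omental tumor holds, 4 of 8 macrophage and leukocyte markers were tested, and none was called in either direction. The brightest probes of Itgam, Csf1r, Cd14 and Cd68 were well above background on all 4 arrays, with differences of -0.13, 0.22, -0.69 and 0.19. Ptprc, the gene of CD45, Adgre1, Fcgr1 and Lyz2 were not well above background on any array. The summed level was 4.48 to 4.65 in ID8G cells and 4.44 in both GO2 arrays. Of 8 endothelial markers, Pecam1 alone was well above background, with a difference of 0.08. Of 6 adipocyte markers none was called higher and Fabp4, which passed the filter through ID8G cells alone, was called lower. Pparg and Lep gave clear signal in both lines, and their differences of -0.42 and -0.04 were not called. Cidec had clear signal on GO2 replicate 1 alone and was not tested. Adipoq and Plin1 were not well above background on any array. The study traces ID8 to mouse ovarian surface epithelial cells, and the epithelial and mesothelial lists were examined for this origin. Krt8, Krt18, Wt1 and Msln were well above background on all 4 arrays, with differences of -0.55, -0.81, -0.10 and -0.82, while Epcam and Krt7 were not well above background on any array. Krt19 was called lower by 1.65 on the log2 scale and Upk3b higher by 1.08, which was not called with spike-in scaling or limma treat. With spike-in scaling Krt18 and Msln were called lower as well.

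**Figure D4:**
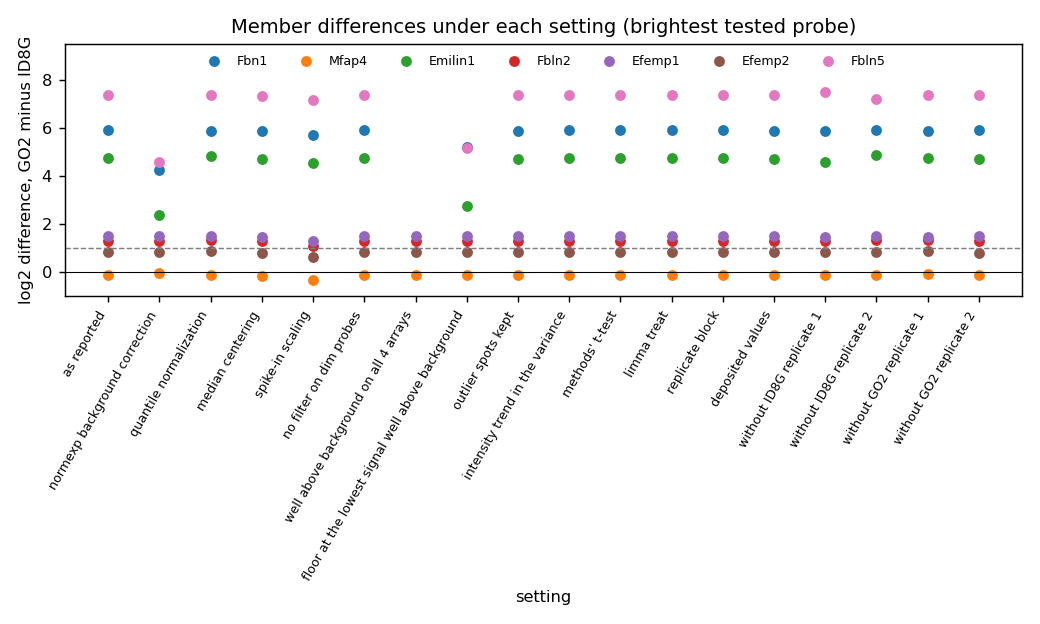
Log2 difference between GO2 and ID8G cells (vertical axis) for the brightest tested probe of 7 genes as reported and under each alternative setting (horizontal axis), with the dashed line at a 2-fold difference. Fbn1, Emilin1 and Fbln5 moved down with normexp correction and with the floor and have no value where signal well above background was required on all 4 arrays. Efemp1 ranged from 1.29 to 1.53, Fbln2 from 1.11 to 1.35, Efemp2 from 0.64 to 0.88 and Mfap4 from -0.31 to -0.05.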

How the data were processed

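Cy3-labeled cRNA of ID8G and GO2 cells was hybridized to 4 Agilent SurePrint arrays on 1 slide. The deposited scanner output gives an intensity per spot, which the authors corrected for background with Feature Extraction 11.5.1.1 and did not normalize between arrays. The authors also deposited a table of log2 values from GeneSpring, whose settings are not given in the sources used here. Its columns have medians of 0.10, -0.05, 0.04 and -0.05, the median of each probe is 0, and its differences between arrays deviate from those of the scanner files by a median of 0.001. It was used for 1 alternative.

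Spots marked as outliers were left out, spots of one probe were averaged, and each array's 75th percentile, taken over the probes other than controls, was subtracted from the log2 values. These were fitted in R 4.3.3 by limma 3.58.1, with the line as the single term. Of 56605 probes, 32994 (58.3%) took a symbol by RefSeq accession (GRCm38.p6). For a gene with several probes, it was called where any tested probe was called, and its leading value is that of the brightest tested probe. Lower bounds used, on each array, the lowest level well above background, or the probe's own level where higher. The genes, lists and tests were chosen with earlier results of these data known. In related lists the called genes were named, with at most 2 bright genes that were not called, and other names were chosen after their values were seen. The procedure was tested on simulated data. Figures were drawn with matplotlib 3.10.9 in python 3.11.15. The alternatives were normexp correction (offset 50, on the median pixels), quantile, median and spike-in scaling, other filters, a floor, outlier spots kept, an intensity trend, the methods' t-test, limma treat, the deposited values, each array left out, and the replicate number as a block.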

Additional observations from a re-analysis of the deposited data

How the results depend on the processing

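Fbn1, Fbln5, Emilin1, Efemp1 and Fbln2 were called higher and none of the 10 genes lower under every alternative that kept these probes in the test, other than the methods' t-test. That test called 0 of the 10 genes higher, and the adjusted p values were 0.157 for Emilin1, 0.135 and 0.165 for Efemp1, 0.122 and 0.0965 for Fbn1, 0.11 for Fbln2 and 0.146 for Fbln5, with differences as reported (4.74, 1.50 and 1.40, 6.51 and 5.90, 1.32 and 7.38). At an unadjusted p below 0.05 it counted 5 genes. A filter for clear signal on each of the 4 arrays left 2 genes called, Efemp1 and Fbln2, since Fbn1, Fbln5 and Emilin1 were no longer tested. Dropping the filter added Mfap2. The highest limma adjusted p of any of the 7 probes in another setting was 0.0472, for Fbln2 with treat.

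Among related genes, the t-test called 0 higher and 0 lower. The count of lower genes, 1 as reported, was 3 with spike-in scaling (Thsd4 and Adamts10 added), 2 with no filter (Hmcn1 added) and 0 with limma treat. Without 1 array in turn it was 2, with Thsd4 or Adamts10 added. Of the 6 higher genes, Fbln7 was not called with normexp (0.79) or with the floor (0.43), Ltbp1 was not called with limma treat (adjusted p = 0.207), and 4 were left with signal on all 4 arrays.

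Over all probes, 1277 higher and 947 lower became 818 and 517 with normexp, 666 and 606 with signal on all 4 arrays, 0 and 3 with the t-test (1001 and 728 unadjusted), and 748 and 440 with limma treat. Spike-in scaling gave 1107 higher and 1428 lower, moved the median difference from -0.02 to -0.23, and moved the share of higher probes among those called from 57.4% to 43.7%. The causes were not tested beyond the smaller number of probes tested and the stricter criterion of treat. Without 1 array, Fbn1 (A_55_P2931427) ranged from 5.86 to 5.94, Fbln5 from 7.23 to 7.52 and Fbln2 from 1.29 to 1.35, with the lone array assumed to vary like the other line.

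With the replicate number as a block, 5 genes were higher and 0 lower, and no call among the 10 genes changed. Arrays with the same number did not deviate together (correlation 0.0273). Nothing in the labels says that a number marks a shared culture or day, and whether it does is unknown. The slide could not be used as a block, because there was 1 slide.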
